A study of Mus musculus with 17 samples.

Results

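The genes described are those of the synaptic vesicle cycle and of the adhesion pair that joins the 2 sides of a synapse. They comprise the synaptotagmins (Syt), synapsins (Syn1 to Syn3), Snap, syntaxin (Stx) and Vamp proteins, complexins (Cplx), RIM proteins (Rims), SV2 glycoproteins, neurexins (Nrxn) and neuroligins (Nlgn). Probes were taken by gene name in the array files, and a probe was kept when its spot was well above background in either colour on at least 2 of 17 arrays. Of 41174 probes in all, 125 probes of 64 genes matched by name, and 123 probes of 63 genes were kept. The single probe of Sv2c and a probe of Syn3 were left out because they were well above background on 0 arrays. Just inside the limit, a probe of Syt15 was well above background on 2 arrays and a probe of Vamp5 on 3.

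A synaptic vesicle fuses when Vamp proteins on the vesicle pair with Snap25 and syntaxin 1 on the plasma membrane. Complexins hold this SNARE complex back, synaptotagmins trigger it on calcium entry, RIM proteins place the vesicle at the active zone, and synapsins tether the reserve vesicles. Neurexins on the presynaptic side bind neuroligins on the postsynaptic side. The postnatal subventricular zone (SVZ) sends neuroblasts to the olfactory bulb by way of the rostral migratory stream, and there they become interneurons and form synapses.

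The study followed CD1 mice in which progenitors of the dorsal or of the lateral SVZ wall were electroporated in vivo at postnatal day 1. GFP-positive cells were sorted 8 hours or 1, 2, 4, 7 or 14 days later, on 2, 3, 2, 3, 3 and 4 arrays in that order. Each array was a 2-colour Agilent array that held 1 dorsal sample, labelled with Cy3, and 1 lateral sample of the same time, labelled with Cy5, and the dyes were never swapped, so that a constant dye effect of a probe adds to every difference between walls. The labels name polyA RNA for the dorsal channel and total RNA for the lateral one, which would add in the same way, and both were amplified by a global PCR service before labelling. They call the arrays of a time biological replicates. The promoter that drove GFP and the number of animals behind a sample are not given in the sources used here. In such bulk samples, fewer cells of a type and less RNA per cell cannot be told apart.

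Between 41.0 and 76.7% of spots were well above background in the dorsal channel, and between 56.4 and 79.4% in the lateral channel. Replicate 1 of 1 day and replicate 2 of 14 days were the least like the other arrays, with a median r over probes of 0.67 and 0.74, and are called the arrays that stand apart. The 3 arrays of 1 day shared a slide of their own, as did the 4 arrays of 14 days, so for these times slide and time cannot be told apart. The arrays of 8 hours shared a slide with replicate 3 of 4 days and of 7 days. Levels are normalised log2 intensities, which are compared between samples for 1 probe and not between probes, and the number of arrays limits their precision. The mean level over 10 radial glia markers was, in time order, 13.49, 13.35, 13.36, 12.51, 12.06 and 11.91. Over 11 neuroblast markers it was 10.72, 11.74, 13.14, 14.89, 14.66 and 13.60 at the same times, and over 9 markers of mature neurons 8.76, 9.67, 9.23, 9.81, 9.99 and 10.34. The part of these cell types in the results was not tested.

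Among genes called below, several had higher means of both walls at 4 and 7 days than at any earlier time. These included Snap25, Stx1a, Cplx1, Syt7, Syt16, Syn3, Nrxn3, Snap91 and Stx7. The immune syntaxin Stx11 was high at 8 hours alone. Of the 63 genes, 10, 12, 6, 14, 9 and 12 had their highest mean at 8 hours, 1, 2, 4, 7 and 14 days. Over the 6 times, 10 of 63 genes passed the F test on the mean of both walls (limma, Benjamini-Hochberg adjusted p under 0.05), against 7.21% of the 26418 genes tested on the array. They were Snap25 and Stx1a among the neuronal SNAREs, Syt7 and Syt16 among the synaptotagmins, Cplx1, Syn3, Nrxn3, and Snap91, Stx11 and Stx7 among the trafficking proteins. None of the 4 RIM genes, 3 neuroligins and 2 SV2 genes passed it. At an unadjusted p under 0.05 the F test named 18 of the 63 genes, against 21.1% of all genes.

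**Figure D1:**
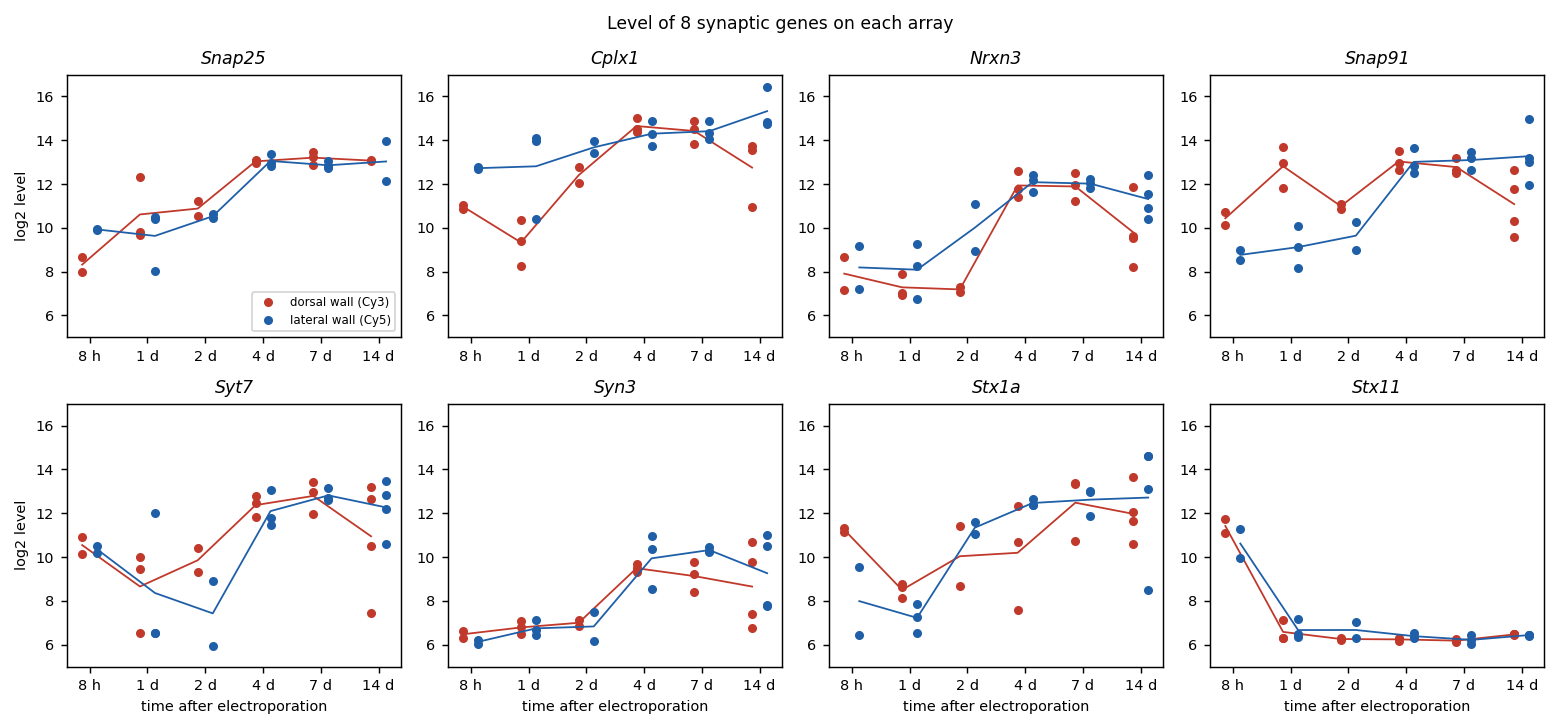
Log2 level (vertical axis) of 8 genes against the time after electroporation (horizontal axis); each point is 1 array, red for the dorsal wall and blue for the lateral wall, and lines join the means. The lines of Snap25, Cplx1, Nrxn3, Syt7 and Syn3 in both walls, and of Snap91 in the lateral wall, lie higher at 4 and 7 days than before, Stx1a is lowest at 1 day, and Stx11 stands high at 8 hours alone.

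Snap25, the plasma membrane SNARE of neurons, was among the members with the largest differences. Its level, as the mean of both walls, was 9.30 and 8.95 on the 8-hour arrays, 8.91, 11.36 and 10.10 on those of 1 day, 10.92 and 10.49 on those of 2 days, 12.95, 12.93 and 13.25 on those of 4 days, 12.99, 12.85 and 13.26 on those of 7 days and 12.57 and 13.53 on those of 14 days. The arrays of 4 days and later lay above all arrays of the first 3 times (F test, adjusted p 0.00232 in limma). At 14 days this probe was measured on 2 of the 4 arrays, replicates 1 and 4, since the other spots were marked as outliers by the scanner software and left out. In the dorsal wall it was 13.03 and 13.11 at 14 days, against 8.67 and 7.97 at 8 hours. The dorsal difference, 4.75 ± 0.74 (SE), passed the test (adjusted p 0.00878), and it did not pass without either array of 8 hours. In the lateral wall the levels were 12.12 and 13.94 at 14 days, against 9.92 and 9.93 at 8 hours, a difference of 3.10 ± 0.77 (SE) (adjusted p 0.0774).

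Snap25 was covered by 3 probes, which are shown by their first 30 bases because the 2 brightest overlap and are not independent readings. Within the 30 bases shown, the first 10 letters of the second repeat the last 10 of the first, marked in capitals. Each probe holds 60 bases, and the remaining ones were not compared.
A_51_P335555: agacaatactcttgtgtggaAAACGTGAAG
A_52_P286421: AAACGTGAAGatcttctaagtctggctctt
A_52_P165961: ccctgtaacaagcttaaatccagtgatgct
The second probe was measured on all 4 arrays of 14 days and passed the test in both walls, with differences of 5.19 ± 0.78 (SE) dorsally (adjusted p 0.00412) and 3.76 ± 0.71 (SE) laterally (adjusted p 0.0135) for Snap25. The third, dimmer Snap25 probe had means of 10.19 at 4 days and 6.19 at 8 hours and did not pass the F test (adjusted p 0.137).

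Stx1a, the syntaxin that pairs with Snap25, passed the F test (adjusted p 0.0238) but varied more between arrays. Its mean of both walls was 8.89 and 10.34 on the 8-hour arrays, 7.98, 7.95 and 7.66 on those of 1 day, 9.86 and 11.51 on those of 2 days, 9.97, 11.54 and 12.48 on those of 4 days, 11.31, 13.15 and 13.20 on those of 7 days and 13.33, 12.60, 13.37 and 10.07 on those of 14 days. Stx1a was lower on every array of 1 day than on any other array, those of 7 days lay above both of 8 hours but overlapped those of 2 and 4 days, and 1 array of 14 days lay below an 8-hour one. In the lateral wall Stx1a was 14.63, 14.62, 13.10 and 8.51 at 14 days, against 6.44 and 9.54 at 8 hours, and the lateral difference of 4.73 ± 1.37 (SE) did not pass (adjusted p 0.121). The F test for Stx1a did not pass without 8 hours replicate 1 or any array of 1 day, nor without both arrays that stand apart (adjusted p 0.0699). Vamp2 and Vamp1 did not pass the F test: from 8 hours to 14 days the mean of Vamp2, the main vesicle SNARE of brain, ran between 11.99 and 13.16 and that of Vamp1 between 10.14 and 11.94.

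Cplx1, which binds the assembled SNARE complex, had means of both walls of 11.92 and 11.77 on the 8-hour arrays, 9.89, 11.17 and 12.15 on those of 1 day, 13.09 and 12.99 on those of 2 days, 14.33, 14.39 and 14.69 on those of 4 days, 14.48, 14.08 and 14.70 on those of 7 days and 12.90, 15.08 and 14.14 on the 3 measured ones of 14 days. Every array of 4 and 7 days lay above every array of the first 3 times (F test, adjusted p 0.00833). The difference of 14 days from 8 hours, 2.20 ± 0.63 (SE), did not pass (adjusted p 0.102). The other complexins did not pass the F test. The means of Cplx2 ran between 11.42 and 13.24, highest at 1 day, and those of Cplx3, a complexin of ribbon synapses, between 10.52 and 12.07. Cplx4, of the same kind, had means between 6.70 and 7.56.

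Of the 17 synaptotagmins, Syt7 and Syt16 passed the F test. Syt7, a slow calcium sensor, was 10.71 and 10.18 on the 8-hour arrays, 6.53, 10.99 and 8.00 on those of 1 day, 8.17 and 9.11 on those of 2 days, 12.46, 12.13 and 12.12 on those of 4 days, 12.82, 12.30 and 13.29 on those of 7 days and 10.14, 11.98, 12.42 and 11.89 on those of 14 days as the mean of both walls (adjusted p 0.0236). Levels of Syt7 were lowest at 1 and 2 days, not at 8 hours, and the arrays of 4 and 7 days lay above all earlier ones. The 3 other, dimmer Syt7 probes did not pass the F test, and the older annotation named the probe given here only by an mRNA accession, without Syt7. The call was lost without either array of 8 hours, 2 days replicate 1, or 7 days replicate 1 or 3, and with the scanner's processed signals (adjusted p 0.0742). Syt16, an atypical synaptotagmin, was 7.90 and 8.62 on the 8-hour arrays, 7.26, 6.31 and 7.28 on those of 1 day, 7.74 and 9.19 on those of 2 days, 11.77, 10.85 and 10.89 on those of 4 days, 9.75, 9.34 and 11.69 on those of 7 days and 11.10, 11.89, 8.27 and 9.45 on those of 14 days (adjusted p 0.0383). All 3 arrays of 4 days lay above every Syt16 value of the first 3 times. A second Syt16 probe passed as well (adjusted p 0.0191), whereas the first remained called in 6 of 17 fits that left out 1 array, and lost the call without any array of 8 hours, 1 day, 2 days or 4 days or without 7 days replicate 1.

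The calcium sensor of fast release, Syt1, did not pass a test on its brightest probe (F test, adjusted p 0.266). On that probe the means of both walls were 7.19, 8.26, 6.89, 8.00, 8.08 and 10.16 in time order. The Syt1 values of 14 days were 9.95, 12.84, 8.47 and 9.38, of which the highest, on replicate 2, is from an array that stands apart, and in the dorsal wall that array gave 11.90, with 8.08 as the next highest. On the second Syt1 probe the lateral levels were 11.38, 14.07, 9.26 and 11.52 at 14 days, against 6.42 and 6.23 at 8 hours, a difference of 5.23 ± 1.06 (SE) that passed (adjusted p 0.0204). The highest of these Syt1 values was on the array of 14 days replicate 2. Syt11, which does not bind calcium, had means between 13.61 and 14.78, and Syt6 between 8.75 and 10.63, with no call. Syt4, a synaptotagmin of dense-core vesicles, had means of 7.65, 7.93, 8.68, 10.19, 9.72 and 9.73 in time order, which did not pass (F test, adjusted p 0.348).

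Among the synapsins, Syn3, the synapsin known from immature neurons, was 6.34 and 6.26 on the 8-hour arrays, 6.75, 7.10 and 6.45 on those of 1 day, 6.52 and 7.31 on those of 2 days, 10.30, 9.01 and 9.83 on those of 4 days, 9.42, 9.99 and 9.76 on those of 7 days and 7.24, 10.39, 7.60 and 10.60 on those of 14 days (F test, adjusted p 0.0303). All 6 arrays of 4 and 7 days lay above all arrays of the first 3 times, while those of 14 days were split into 2 low and 2 high ones. Laterally, the Syn3 signal was well above background on 0 of 2 arrays of 8 hours and on 4 of 4 at 14 days. Its mean lateral level at 14 days was 8.76-fold the background-level one of 8 hours, a difference that did not pass the limma test (adjusted p 0.118). The older annotation named the same probe Fbxo7, so its identity as Syn3 is uncertain. Another Syn3 probe also passed the F test (adjusted p 0.0111) but fell between 7 and 14 days, with means of 6.54 at 14 days and 8.71 at 7 days. Without either array of 8 hours or of 2 days, any array of 7 days, or 4 days replicate 1 or 3, the call of the brightest probe was lost.

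Both probes of Syn1, which tethers reserve vesicles, are shown because they disagreed.
A_52_P482360: ccgccgcctccctcggccgccagccctggg
A_51_P420684: tctgacagctgtctttaaatatgcaaactc
These are the first 30 of 60 bases. The first Syn1 probe holds 81.7% G and C over its whole length, the highest of the 123 probes, whose median was 41.7%, and the second holds 43.3%. The first, brighter probe gave means of both walls between 13.02 and 13.32 at all 6 times (F test, adjusted p 0.996). The second Syn1 probe gave 10.03, 10.55, 10.14, 12.99, 12.71 and 13.11 in time order, and passed (adjusted p 0.0375). Syn1 as measured by the second probe therefore stood with the genes that were high from 4 days, and as measured by the first it did not. The rule on the brightest probe counts Syn1 as not called.

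**Figure D2:**
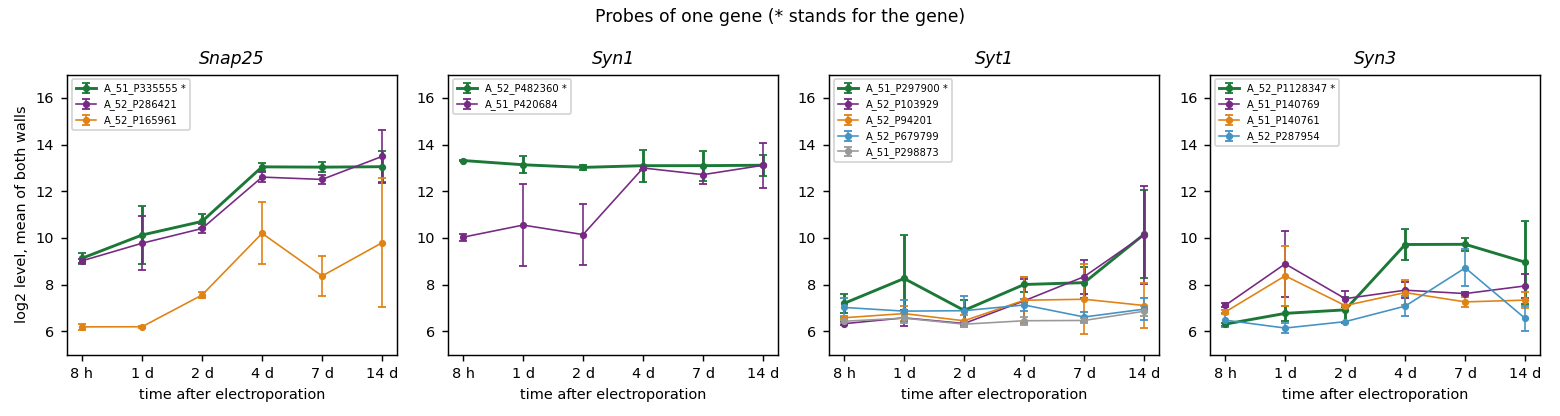
Log2 level as the mean of both walls (vertical axis) against time (horizontal axis) for each kept probe of Snap25, Syn1, Syt1 and Syn3; points are means, bars are SD over the 2 to 4 arrays of a time, and an asterisk marks the probe that stands for the gene. The Syn1 probes part at the first 3 times, where 1 probe stays near 13 and the other near 10.

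Syn2 had means of 10.47, 10.40, 11.68, 8.15, 9.74 and 11.57 in time order and did not pass (F test, adjusted p 0.481), so unlike Syn3 it was lowest at 4 days. Sv2a, a vesicle glycoprotein, had means of 8.67, 7.98, 9.33, 11.79, 11.65 and 10.77 and did not pass either (adjusted p 0.120). Sv2b had means between 6.52 and 8.53. Of the RIM genes, Rims2 had means of 9.73 at 14 days and 7.59 at 8 hours (adjusted p 0.280). Rims1 ran between 7.92 and 9.45 and Rims3 between 6.60 and 7.98.

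Among the adhesion genes, Nrxn3 passed the F test. Its mean of both walls was 8.91 and 7.19 on the 8-hour arrays, 8.07, 8.14 and 6.85 on those of 1 day, 9.08 and 8.12 on those of 2 days, 11.54, 12.09 and 12.40 on those of 4 days, 12.16, 11.63 and 12.07 on those of 7 days and 10.31, 9.97, 11.69 and 10.26 on those of 14 days (F test, adjusted p 8.32e-04). All arrays of 4 days lay above all of 2 days, and this step of 3.41 ± 0.61 (SE) passed on its own (adjusted p 0.0287), where 0.2% of 26462 genes were called higher. Without any array of 2 or 4 days, or with processed signals, the step did not pass. At 14 days Nrxn3 was still above 8 hours, by 2.51 ± 0.58 (SE) (adjusted p 0.0345), a call that was lost in 6 of 17 fits that left out 1 array, namely 8 hours replicate 2, 4 days replicate 2, 7 days replicate 1 or 3, or 14 days replicate 3 or 4, and with processed signals (adjusted p 0.0619). Nrxn2 had means of 12.85, 13.16, 14.03, 14.76, 14.70 and 13.39 in time order and did not pass.

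None of the neuroligins, the postsynaptic partners, passed the F test or a test of 14 days against 8 hours. Nlgn2, of inhibitory synapses, had means between 13.43 and 14.15, Nlgn1, of excitatory synapses, between 7.38 and 9.68, and Nlgn3 between 7.90 and 8.71. Their differences of 14 days from 8 hours were -0.22 ± 0.51 (SE) for Nlgn2, 0.13 ± 0.87 (SE) for Nlgn1 and 0.75 ± 0.83 (SE) for Nlgn3. Whether the neurexins and the neuroligins differ in their courses was not tested.

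**Figure D3:**
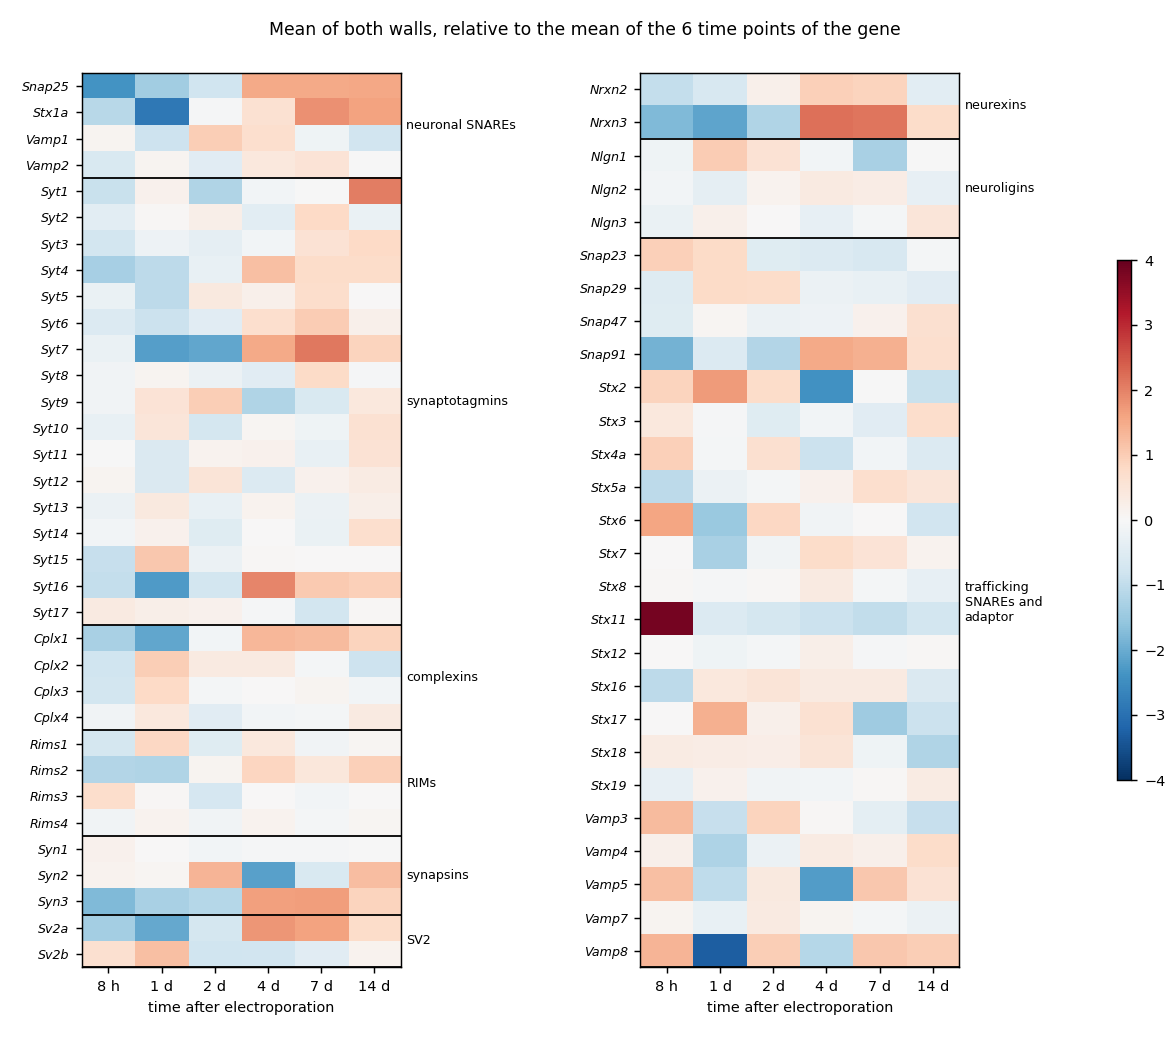
Mean of both walls at each time (columns) relative to the gene's own mean over the 6 times, as a log2 difference from blue (lower) to red (higher), for the member genes (rows) grouped by role, other than those not reported here. Snap25, Syt7, Syt16, Cplx1, Syn3, Sv2a, Nrxn3 and Snap91 turn from blue to red at 4 days, Stx11 is red at 8 hours alone, and the neuroligins stay near white apart from Nlgn1.

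Among the 22 syntaxins, Snap and Vamp proteins of general membrane traffic and the clathrin adaptor Snap91, 3 passed the F test. Snap91 (AP180), which sizes synaptic vesicles during their retrieval, was 9.87 and 9.33 on the 8-hour arrays, 11.39, 11.52 and 10.00 on those of 1 day, 10.58 and 10.05 on those of 2 days, 13.32, 13.01 and 12.74 on those of 4 days, 12.84, 13.32 and 12.64 on those of 7 days and 10.77, 13.38, 11.65 and 12.91 on those of 14 days as the mean of both walls (adjusted p 0.0153). On this mean and in the lateral wall, the arrays of 4 and 7 days lay above all earlier ones. In the dorsal wall the arrays of 1 day overlapped those of 4 and 7 days. In the lateral wall Snap91 was 11.95, 14.97, 12.99 and 13.18 at 14 days, against 8.99 and 8.54 at 8 hours, a difference of 4.51 ± 0.73 (SE) that passed (adjusted p 0.00492). In the dorsal wall it was 9.59, 11.80, 10.30 and 12.65 at 14 days, against 10.74 and 10.13 at 8 hours, where the values overlapped. The lateral call of Snap91 was lost without 8 hours replicate 2, and its F test without either array of 8 hours.

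Stx7, of late endosomes, passed the F test (adjusted p 0.0186) on a narrow range: its means were 13.77, 12.47, 13.64, 14.51, 14.31 and 13.90, lowest at 1 day, with 14 days resting on 3 arrays. The Stx7 call was lost without 1 day replicate 2 and with processed signals (adjusted p 0.0963). Stx5a, of transport between endoplasmic reticulum and Golgi, passed in the lateral wall between 14 days and 8 hours alone. Its lateral levels were 13.43, 15.58, 13.29 and 13.32 at 14 days, against 9.31 and 11.81 at 8 hours, a difference of 3.34 ± 0.75 (SE) (adjusted p 0.0369). Its dorsal levels were 10.38, 10.27, 10.32 and 12.93 at 14 days, against 10.86 and 11.67 at 8 hours. The Stx5a call held in 6 of 17 fits that left out 1 array, those without 8 hours replicate 2, any array of 1 day, or 14 days replicate 1 or 3, and the call was lost with processed signals (adjusted p 0.0584) and with median centring (adjusted p 0.0518). A second, dimmer Stx5a probe passed the F test instead (adjusted p 0.0186), with its highest mean, 10.77, at 7 days and its lowest, 7.18, at 1 day.

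Stx11, a syntaxin of immune cells that serves the granules of cytotoxic lymphocytes, was higher at 8 hours than at any later time. In the dorsal wall it was 11.09 and 11.74 on the 8-hour arrays, 7.15, 6.30 and 6.30 on those of 1 day, 6.20 and 6.32 on those of 2 days, 6.29, 6.15 and 6.28 on those of 4 days, 6.16, 6.11 and 6.27 on those of 7 days and 6.49, 6.48, 6.47 and 6.42 on those of 14 days. In the lateral wall it was 9.97 and 11.26 on the 8-hour arrays, 7.17, 6.48 and 6.34 on those of 1 day, 6.32 and 7.02 on those of 2 days, 6.35, 6.28 and 6.53 on those of 4 days, 6.01, 6.22 and 6.43 on those of 7 days and 6.46, 6.41, 6.44 and 6.45 on those of 14 days. It was well above background in both channels on both arrays of 8 hours and in neither channel on any array of 4, 7 or 14 days. The mean level at 14 days, at background, was 31.0-fold lower in the dorsal wall and 18.1-fold lower in the lateral wall than at 8 hours (limma, adjusted p 4.82e-06 and 5.66e-05). The first step, 1 day minus 8 hours, was -4.39 ± 0.33 (SE) (adjusted p 3.97e-05), and all these calls held in each of 17 fits that left out 1 array. A stricter filter on dim probes removed Stx11 from the test.

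The mean level over 9 microglial markers was, in time order, 14.01, 10.50, 14.04, 11.45, 14.50 and 12.60, and its part in the Stx11 values was not tested. That of 5 erythroid markers was 13.32 at 8 hours and between 8.78 and 11.50 later. Vamp8, the Vamp of secretory granules and lysosomes, had means of 14.94, 10.27, 14.57, 12.43, 14.65 and 14.56 in time order and did not pass the F test (adjusted p 0.174). Within 1 day Vamp8 ranged over 7.59, 8.70 and 14.54 on the 3 arrays. Stx16, of the trans-Golgi network, had means between 12.81 and 14.38, and Stx8, of late endosomes, between 13.07 and 13.77, and neither passed the F test. A dim Stx8 probe did pass the F test, with its lowest mean at 4 days (7.80, against 10.46 at 8 hours), while the 3 brighter Stx8 probes did not.

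Between 14 days and 8 hours, 1 of 63 genes was higher in the dorsal wall (Snap25) and 1 lower (Stx11), against 0.288% and 1.19% of 26418 genes. In the lateral wall 2 were higher (Snap91 and Stx5a) and 1 lower (Stx11), against 1.02% and 1.07% of 26418 genes. On the mean of both walls 3 were higher (Snap25, Nrxn3 and Snap91) and 1 lower (Stx11), against 1.15% and 1.78%, and Snap91 kept that call in 4 of 17 fits that left out 1 array, those without 1 day replicate 1 or 3 or 14 days replicate 1 or 3. It was also lost with processed signals, with no filter and without both arrays that stand apart (adjusted p 0.0502 to 0.0787). At an unadjusted p under 0.05 there were 8 dorsal and 14 lateral genes of 63, against 12.6% and 11.7% of all genes. The median difference of the 63 genes was 0.27 in the dorsal wall and 0.73 in the lateral wall, beside 0.14 and 0.24 over all genes tested. Without 14 days replicate 2, an array that stands apart, the medians of the 63 genes were 0.24 dorsally and 0.34 laterally. On the mean of both walls the median was 0.46, beside 0.18 over all genes, and without 14 days replicate 2 it was 0.27, beside 0.14. The median of the 17 synaptotagmins was 0.68 dorsally and 0.77 laterally, and that of the 22 trafficking proteins -0.68 and -0.14.

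**Figure D4:**
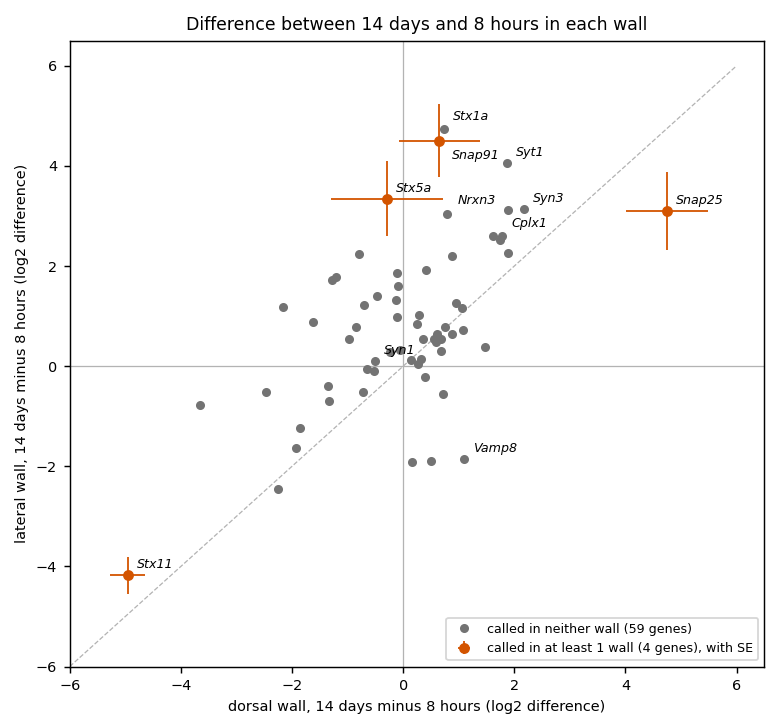
Log2 difference between 14 days and 8 hours in the dorsal wall (horizontal axis) and the lateral wall (vertical axis) for the 63 genes; orange points with SE bars passed the test in at least 1 wall and the dashed line marks equal differences. Snap25 lies right of the line at 4.75 and 3.10, Snap91 and Stx5a lie far above it, and Stx11 lies at -4.95 and -4.18.

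The arrays of 14 days varied among themselves. Replicate 1 had the highest mean over 9 olfactory mucosa markers, 10.5 against 8.31 to 8.68 on the others, and the lowest over 9 mature neuron markers, 8.35 against 10.8 to 11.3. Over 9 microglial markers it stood at 15.6, against 11.0 to 12.9. Without that array the calls of Stx11 in both walls and of Snap91 and Stx5a in the lateral wall held, and Cplx1 was called higher in the dorsal wall and Syn3 in the lateral wall as well. Snap25 then rests on 1 array at 14 days, with a spread taken from the other times, so its calls in both walls in that fit are no check.

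The times were also compared within slides, on fewer arrays, a comparison added after the data were seen. In the 10 arrays of 3 slides that each hold several times, with the slide as a block, 13 of 63 genes were higher and 7 lower at 4 days than at 8 hours, against 7.15% and 7.54% of 26462 genes. Higher, with log2 differences of the mean of both walls in brackets, were Snap25 (4.13), Nrxn3 (4.22), Sv2a (4.03), Syn3 (3.49), Snap91 (3.13), Cplx1 (2.88), Syt4, Stx1a, Rims2, Syt7, Nrxn2, Stx16 and Vamp2. Lower were Stx11 (-4.58), Vamp5 (-4.59), Stx2 (-3.51), Vamp8, Syn2, Stx4a and Sv2b. Stx2 and Stx4a are syntaxins of the plasma membrane, and Vamp5 is known from muscle. On this footing only 1 array of 4 days shared the slide of the 8-hour arrays, and the others were tied to it through 4 and 7 days. The same 10 arrays with no block gave 14 genes higher and 7 lower at 4 days than at 8 hours, against 8.99% and 8.87% of 26462 genes, and 19 of these were among the 20 called with the block. With all 17 arrays and no block, 5 genes were higher (Cplx1, Nrxn3, Snap25, Snap91 and Syn3) and 1 lower (Stx11) at 4 days than at 8 hours, against 2.53% and 3.66%, and the same 6 genes were called at 7 days, against 1.95% and 2.32%.

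Between 2 and 4 days the comparison within slides called 6 genes higher, against 1.97% of 26462 genes, namely Cplx1 (1.31), Nrxn3 (3.29), Snap25 (2.23), Snap91 (2.85), Syn3 (2.76) and Syt7 (3.50). It called 4 lower, against 3.25%, namely Syn2 (-3.29), Stx2 (-3.03), Stx4a (-1.44) and Stx6 (-1.42). Between 4 and 7 days only Stx2 and Syn2 were called, both higher at 7 days, against 1.04%. With all 17 arrays the steps between neighbouring times called Stx11 between 8 hours and 1 day, where 0.843% of genes were called lower, and Nrxn3 between 2 and 4 days. The step from 1 to 2 days, that from 4 to 7 days and that from 7 to 14 days called 0 members in limma, against 0.00378%, 0.068% and 0.579% of genes called. At an unadjusted p under 0.05 they held 6, 4 and 3 of the 63 genes, against 8.96%, 4.3% and 12.1% of all genes. Between 2 and 4 days markers differed too: the mean over 11 neuroblast markers was 14.89 at 4 days, against 13.14 at 2 days, that over 8 astrocyte markers 10.34, against 12.82, and that over 5 ependymal markers 8.23, against 12.15. Of these, 1 neuroblast marker was called higher and 3 astrocyte markers were called lower at 4 days, and their part in the step was not tested.

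The walls were compared within arrays. The mean difference of the 6 times, dorsal minus lateral, was called for 2 of 63 genes, against 1.97% of 26418 genes, with Nlgn1 higher and Cplx1 lower in the dorsal wall. With median centring within each array in place of loess, 1 was higher and 10 were lower in the dorsal wall, against 5.55% and 15.8% of 26418 genes. Dorsal minus lateral values of Nlgn1 were 0.20 and 1.06 on the 8-hour arrays, 1.73, 0.34 and 1.36 on those of 1 day, 1.28 and 1.21 on those of 2 days, 1.51, 4.67 and 0.77 on those of 4 days, 1.74, 3.86 and 1.32 on those of 7 days and 0.94, -0.23, 0.77 and 1.10 on those of 14 days. Nlgn1 was higher in the dorsal sample on 16 of 17 arrays, by a mean of 1.38 ± 0.28 (SE) (adjusted p 0.0281). The Nlgn1 call was lost without either array of 8 hours or of 2 days.

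Dorsal minus lateral values of Cplx1 were -1.71 and -1.81 on the 8-hour arrays, -1.01, -5.82 and -3.60 on those of 1 day, -0.62 and -1.92 on those of 2 days, 0.11, 1.28 and -0.33 on those of 4 days, 0.84, -0.47 and -0.35 on those of 7 days and -3.89, -2.67 and -1.17 on the 3 measured ones of 14 days. Cplx1 was lower in the dorsal sample on 13 of 16 arrays, and the 3 exceptions were at 4 and 7 days. Its mean of -1.45 ± 0.33 (SE) was at the edge of the threshold (adjusted p 0.0498), held in 3 of 17 fits that left out 1 array, those without 1 day replicate 1 or 2 or 14 days replicate 4, and was lost with processed signals, with a stricter filter, with outlier spots kept and with the authors' value table. With the dyes fixed and the RNA type named differently for the walls in the labels, these mean differences and an effect of the dye or of the RNA type on the probe cannot be told apart. On the mean over the 6 times, 3 of 11 neuroblast markers and 1 of 9 mature neuron markers were lower, and 3 of 10 radial glia and 3 of 8 astrocyte markers were higher, in the dorsal wall. The 4 erythroid markers had the highest median of the marker lists, 2.08, with 1 called higher in the dorsal wall, and the part of cell types in these differences was not tested.

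**Figure D5:**
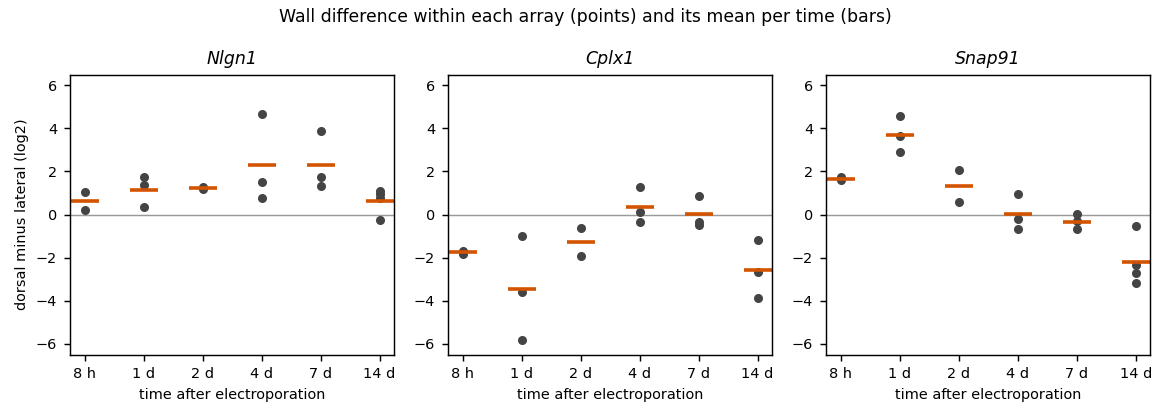
Dorsal minus lateral log2 difference within each array (points, vertical axis) by time (horizontal axis) for Nlgn1, Cplx1 and Snap91, with the mean of a time as an orange bar. Nlgn1 lies above 0 on all but 1 array, Cplx1 lies below 0 at 8 hours, 1, 2 and 14 days, and Snap91 stands at 2.89 to 4.56 at 1 day and below 0 on all 4 arrays of 14 days.

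Snap91 was the member whose wall difference moved with time, where a constant effect of the dye or of the RNA type cancels. An effect that differs between slides does not cancel, and at 1 day and 14 days slide and time cannot be told apart. Dorsal minus lateral values were 1.75 and 1.59 on the 8-hour arrays, 4.56, 2.89 and 3.62 on those of 1 day, 0.61 and 2.09 on those of 2 days, -0.69, 0.96 and -0.22 on those of 4 days, -0.69, -0.30 and 0.02 on those of 7 days and -2.36, -3.18, -2.69 and -0.53 on those of 14 days. Snap91 was thus higher dorsally on all arrays of 8 hours, 1 day and 2 days and lower dorsally on all arrays of 14 days. At 1 day the difference of 3.69 ± 0.49 (SE) passed (adjusted p 0.00701), where 0.586% of 26462 genes were called higher dorsally. It held in all 17 fits that left out 1 array and was lost with array weights (adjusted p 0.0519). The F test for a change of the wall difference called 13 of 26418 genes, or 0.0492%, Snap91 among them (adjusted p 0.0376). That call held in 4 of 17 fits that left out 1 array, those without 8 hours replicate 2, either array of 2 days or 14 days replicate 4, and was lost with processed signals, median centring, quantile scaling, a stricter filter, the authors' value table and without both arrays that stand apart.

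For the change of the wall difference between 8 hours and 14 days, 0 of 63 genes passed in limma, and 43 of 26418 genes, or 0.163%, did. An unadjusted p under 0.05 was found for 9 of the 63, against 6.9% of all genes. At the single times other than 1 day, 0 of 63 genes passed in limma, against 0.367%, 0.162%, 0%, 0.0265% and 0.0227% of genes called at 8 hours, 2, 4, 7 and 14 days. At an unadjusted p under 0.05 there were 11, 5, 4, 4 and 11 of the 63 genes, against 7.07%, 7.6%, 5.31%, 5.01% and 10.4% of all genes. A second probe of Sv2b, a vesicle glycoprotein, was higher in the dorsal wall at 8 hours by 1.67 ± 0.22 (SE) (adjusted p 0.00525), where 0.294% of all probes were called higher and the brightest Sv2b probe was not called.

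Other genes of the same machinery were read from lists chosen by function. Of 18 genes that prepare or undo fusion, 6 passed the F test over time, against 7.21% of all genes, and between 14 days and 8 hours 0 were called in the dorsal wall in limma, against 0.288% called higher and 1.19% lower. At an unadjusted p under 0.05 there were 5 in the dorsal wall, against 12.6% of all genes, and after adjustment 4 were higher in the lateral wall, against 1.02%. The priming factor Unc13a differed by 5.28 ± 1.09 (SE) in the lateral wall (adjusted p 0.0235), Cadps, which primes dense-core vesicles, by 4.83 ± 0.93 (SE) (adjusted p 0.0153) and Napb, an adaptor of SNARE recycling, by 3.17 ± 0.65 (SE) (adjusted p 0.0218). The median lateral difference over the 18 genes was 1.88 and the dorsal one 0.98, beside 0.24 and 0.14 over all genes. Of 22 other vesicle and active zone genes, 6 passed the F test, 7 were higher in the lateral wall and 1 in the dorsal wall, against 7.21%, 1.02% and 0.288% of all genes, with a median difference of 0.64 in the dorsal wall and 2.29 in the lateral wall.

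Synpr (synaptoporin), a vesicle membrane protein, had the largest called difference of that list, 6.61 ± 0.70 (SE) in the lateral wall (adjusted p 2.39e-04) and 5.16 ± 0.77 (SE) in the dorsal wall (adjusted p 0.00360). The active zone scaffold Bsn differed by 4.49 ± 0.86 (SE) (adjusted p 0.0145) and the GABA transporter of vesicles, Slc32a1, by 4.33 ± 0.84 (SE) (adjusted p 0.0158) in the lateral wall. Of 29 other synaptic adhesion and postsynaptic scaffold genes, 1 passed the F test, against 7.21% of all genes, namely Slitrk3 (adjusted p 0.0457). In that list Ptprs, a presynaptic receptor phosphatase, was higher in the lateral wall by 1.44 ± 0.33 (SE) (adjusted p 0.0439) and Slitrk5, an adhesion protein, was lower in the dorsal wall by -3.10 ± 0.71 (SE) (adjusted p 0.0485), and the median difference was 0.55 in the dorsal wall and 0.81 in the lateral wall.

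Promoter windows from RefSeq (GRCm38.p6, 250 bases before to 50 after the start) were matched by symbol for 45 of the 63 genes, in 63 windows. The neuron-restrictive element RE1, bound by the repressor REST outside neurons, was searched by its consensus on both strands with up to 2 mismatches. It was found in 1 member window, that of Syn1, with 1 mismatch, and in 0.0457% of all 32851 windows. The cyclic AMP element TGACGTCA, searched on both strands, was also held by Syn1 alone among the members, and by 1.79% of all windows. The 250 bases before the Syn1 start are shown for these 2 stretches, given in capitals.
Syn1, chrX:20920919-20921168, minus strand: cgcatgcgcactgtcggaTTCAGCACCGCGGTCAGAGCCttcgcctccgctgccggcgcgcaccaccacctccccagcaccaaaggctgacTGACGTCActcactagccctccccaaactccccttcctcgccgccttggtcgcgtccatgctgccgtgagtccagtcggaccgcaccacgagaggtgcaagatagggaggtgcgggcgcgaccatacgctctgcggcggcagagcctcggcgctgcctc
The RE1 match runs from 232 to 212 bases before the Syn1 start, and the second stretch from 159 to 152 bases before it, and the motifs do not overlap. The left part of RE1, TTCAGCACC, was found in Syn1 and Nlgn1 and in 0.371% of all windows.

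The E-box CAGCTG, a site of proneural factors that reads the same on both strands, was found in 15 of the 45 genes and in 18.3% of all genes with a window. Of the 11 genes called in a time test, 8 had a window, and 5 of these held CAGCTG, namely Cplx1, Stx1a, Stx7, Stx11 and Syt16, of which Stx11 was lower at later times. Cplx1 and Stx1a are shown as 2 neuronal release genes that passed the F test, with the E-box in capitals.
Cplx1, chr5:108550028-108550277, minus strand: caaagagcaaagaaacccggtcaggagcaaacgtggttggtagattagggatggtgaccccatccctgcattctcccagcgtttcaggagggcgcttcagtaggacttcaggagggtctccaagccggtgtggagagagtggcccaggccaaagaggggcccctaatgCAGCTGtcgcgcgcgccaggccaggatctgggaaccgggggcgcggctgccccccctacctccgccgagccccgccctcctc
Stx1a, chr5:135023232-135023481, plus strand: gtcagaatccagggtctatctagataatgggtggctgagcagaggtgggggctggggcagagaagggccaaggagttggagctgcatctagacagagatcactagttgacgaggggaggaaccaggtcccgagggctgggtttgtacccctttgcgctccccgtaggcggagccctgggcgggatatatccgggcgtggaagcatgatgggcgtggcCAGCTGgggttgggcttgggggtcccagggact
The E-box runs from 82 to 77 bases before the Cplx1 start and from 33 to 28 bases before the Stx1a start. The windows of Nrxn3 and Snap91 held no CAGCTG.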

How the data were processed

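RNA of sorted cells was hybridised to 17 Agilent 2-colour arrays holding 34 samples. The deposited scanner files give intensity per spot, a mean signal and a median background for each colour, per the file headers; their processed intensity is background-subtracted and dye-normalised by Feature Extraction, versions 10.5.1.1 and 10.7.3.1. The deposited value table holds a log2 ratio of the authors, Cy3 over Cy5, with a correlation to the scanner's log10 ratio, red over green in the deposited files, of -0.97 to -0.90. Its column medians were -0.164 to 0.0449 and no source used here states its normalisation.

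With limma 3.58.1 in R 4.3.3, background was corrected by normexp (offset 50), each array by loess in which control spots had weight 0, and arrays were scaled to each other by Aquantile. Spots marked as outliers (0.320 to 2.61% per array) were left out, and spots of a probe were averaged. All 36785 probes well above background on at least 2 arrays entered 1 fit with a mean for each time, for dorsal minus lateral, the mean of both walls and each wall. P-values were adjusted by Benjamini-Hochberg, with a threshold of 0.05, and a gene is represented by its brightest probe. The replicates are biological by the labels, which do not say how animals were pooled, so p-values measure the spread between these samples. The fit was tested on simulated data.

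Gene names came from the newer annotation in the files; the older one matched 132 probes, 119 of them in both. Genes named in the text were those called in a time test or a wall test, and up to 3 brightest genes per role not called in a time test. Genes beyond these (Syt1, Syt15, Vamp5, Stx2, Stx4a and Stx6) were named after their values were seen. The members and lists were chosen with earlier results of these data known. Alternatives were processed signals, other scalings and filters, array weights, the slide and the replicate number as blocks, and arrays left out. Values of some members are not reported here.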

Additional observations from a re-analysis of the deposited data

Results flagged for a closer look

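Single arrays of 14 days stood apart from their group for 8 of the genes named, Stx5a among those called. The dorsal level of Stx5a at 14 days was 12.93 in replicate 4, against 10.27 to 10.38 in the 3 others. The lateral level of Stx5a at 14 days was 15.58 in replicate 2, against 13.29 to 13.43 in the 3 others, and replicate 2 is 1 of the 2 arrays that stood apart from the rest. Replicate 2 also held the highest dorsal level of Syt1, 11.90, with 8.08 next, of Sv2b, 8.13, with 7.00 next, and of Syt15, 10.27, with 8.32 next. It held the lowest dorsal level of Nlgn2, 10.72, with 14.02 next, and of Stx2, 6.47, with 11.23 next. In the lateral wall it was highest for Syt4, 12.32, with 9.72 next, and for Syt15, 10.35, with 8.67 next, and lowest for Sv2a, 9.12, with 11.59 next. Over the genes of which 4 arrays were measured at 14 days, 9 of 56 dorsal and 7 of 56 lateral groups held an array this far from the others, beside 12.4% of dorsal and 11.6% of lateral groups over all genes measured on the 4 arrays, where chance gives about 1 in 20. The wall difference of Snap91 changed with time by a test of the change itself (limma F test, adjusted p 0.0376), with means of 3.69 at 1 day and -2.19 at 14 days.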

How the results depend on the processing

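The arrays of 8 hours and 2 days number 2 each, which limits every comparison with them, and 1 day and 14 days cannot be told apart from their slides. None of the 14 calls of single genes that have a direction changed it under the settings tried; the 11 F tests have none. Counts of called member genes were as follows, with the count over all genes of the array in brackets. Between 14 days and 8 hours the 2 dorsal genes (391) became 1 (271) with a stricter filter, 5 (2647) with the slide as a random block and 1 (368) with a replicate block, and the 3 lateral genes (552) 12 (1713) with array weights, 16 (3175) with the random slide block and 6 (1085) without both arrays that stand apart. The 10 genes of the F test over time (1906) became 25 (6062) with array weights, 30 (10958) with the random slide block and 16 (3131) without both arrays. The 2 genes of the steps (626) became 1 with processed signals (284), a stricter filter (464) or a replicate block (914), 17 (3602) with array weights, 14 (6561) with the random slide block, and 8 (1267) without both arrays. With the slide as a fixed block on 10 arrays, which covers only the steps from 2 to 4 days (1380) and from 4 to 7 days (335), 10 were called, and 11 on the same arrays with no block (1564 and 378). The 2 genes of the mean wall difference (520) became 1 with processed signals (167), a stricter filter (368), outlier spots kept (602) or the value table (192), 11 (5640) with median centring (1 higher and 10 lower in the dorsal wall, with the median of the members at -0.51, against 0.00 as reported), 4 (2582) with the random slide block and 0 (5) with a replicate block, under which the adjusted p was 0.440 for Nlgn1 and 0.547 for Cplx1. The 1 gene of the wall difference at single times (368) became 10 (1908) with median centring, 3 (305) with quantile scaling, 2 (680) with array weights, 10 (3354) with the random slide block and 3 (688) without both arrays. The 1 gene of its change with time (13) became 0 with processed signals (2), median centring (6), quantile scaling (7), a stricter filter (5), a replicate block (0), without both arrays (2) or with the value table (0), and 2 (238) with the random slide block. For its change between 8 hours and 14 days the count of 0 (43) became 1 with array weights (111) and with the random slide block (249). The slide correlations behind the random block were negative, -0.23 to -0.15, and were estimated on 3000 probes. Leaving out 1 array gave 1 to 3 dorsal (74 to 592) and 2 to 7 lateral genes (242 to 1027), 5 to 13 in the F test (944 to 2472), 1 to 6 in the steps (190 to 2143), 0 to 2 in the mean wall difference (184 to 975), 1 to 3 at single times (218 to 634), and 0 to 1 in each test of its change (6 to 71 with time, 23 to 123 between 8 hours and 14 days). Same-numbered arrays of different times had correlations of -0.13 to 0.31 (median 0.02, over 36 pairs), beside -0.29 to 0.29 (median -0.004) for the other pairs. The numbers do not all follow the title letters at 1 day and 14 days, so these correlations cannot show whether arrays were paired. At 2, 4 and 7 days the number also went with the slide, so the replicate block is in part a slide block. The correlation of 0.31 was between arrays of the same slide. With the replicate block the calls of 14 days against 8 hours were lost for Snap25 in the dorsal wall (adjusted p 0.0597) and on the mean of both walls (0.0523), Stx5a in the lateral wall (0.0561), and Nrxn3 (0.0762) and Snap91 (0.0674) on the mean of both walls, as were the F test of Syt16 (0.0845), the step of Nrxn3 (0.0790) and the change of the wall difference of Snap91 (0.124). The fixed slide block, its arrays with no block and the fit with outlier spots kept were chosen after seeing the data. The 25 calls of single genes were recomputed under the settings that apply to each, and of all these repeats 565 still passed and 134 did not.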
